A study of Mus musculus with 2 samples.

Results

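Matrix metalloproteinases (MMPs), their tissue inhibitors (TIMPs) and the related sheddase Adam8 were examined in the mouse macrophage line RAW264.7 on 2 Affymetrix mouse 430 2.0 arrays. The 10 genes were chosen by name, as Mmp2, Mmp8, Mmp9, Mmp12, Mmp13, Mmp14, Timp1, Timp2, Timp3 and Adam8, among 18193 genes with a probe set of 1 gene symbol. They were represented by 22 of 34945 such probe sets. Cells of both arrays stably expressed murine LXRalpha, the nuclear receptor for oxidised sterols, after chemical transfection, and the labels name no promoter and no clone. One array held RNA of cells kept for 24 h in the solvent DMSO. The other held RNA of cells kept for 24 h with the LXR agonist GW3965 at 1 µM together with LG268, an agonist of its partner receptor RXR, at 100 nM. No untransfected cells, no single ligand and no inflammatory stimulus were among the labelled conditions.

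MMPs are zinc endopeptidases that cut collagens, gelatin, elastin and other matrix proteins, and also free or inactivate cytokines and chemokines. Most are secreted as inactive precursors whose propeptide must be removed, for example by plasmin, by furin or by another MMP. TIMPs bind the active site of the mature enzymes and block it. Macrophages are known for Mmp9 and Mmp12, which take part in matrix turnover in atherosclerotic plaques and in lung, and the expression of several MMP genes depends on AP-1 and ETS transcription factors. The comparison asks how these genes stood in LXR- and RXR-activated macrophages against the solvent.

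Each condition had 1 array, so no test, standard error or p-value could be given, and higher and lower describe these 2 arrays. Values are MAS5 signals, in arbitrary units on a linear scale, and both arrays had a 2% trimmed mean of 2500.0. A floor was set at the median signal of all probe sets that were not controls, 276.4, and a gene was called measured when its brightest probe set exceeded the floor on at least 1 array. The highest signal of Trpn, a bacterial control gene absent from mouse cells, was 137.5 with DMSO and 115.5 with the ligands. LXR targets were higher as a check of the treatment, with the cholesterol exporter Abca1 at log2 ratios of 4.76 to 5.52 in its probe sets. All 8 macrophage markers on the list, among them Csf1r, Adgre1, Cd68 and Lyz2, were measured and lay within 1.5-fold. The number of arrays limits the precision. As the available error, probe sets of one gene were set against each other, which gave an SD of 0.28 for the log2 ratio of a probe set over 4866 genes. That SD was 0.43 over the 258 of these genes whose brighter signal was at most 4 times the floor, and 0.27 over the 4608 brighter ones. It covers measurement within the arrays and not variation between cultures.

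Most of the protease and inhibitor genes were at or near the lower end of what the arrays could measure. Of the 22 probe sets, 15 were below the floor on both arrays, 2 exceeded it on 1 array and 5 on both. With DMSO 5 of the 22 exceeded the floor and with the ligands 7, beside 50.3% and 49.7% of all probe sets that were not controls. Of the 10 genes, 6 were measured, and 4, Mmp8, Mmp13, Mmp14 and Timp3, did not exceed the floor on either array and are given no fold. Among all 18193 genes, 11077 were measured, so the count of measured genes does not set this group apart. None of the 6 measured genes reached 2-fold, as a value or as a bound. Mmp9 passed 1.5-fold upwards in the probe set taken for it and not in its other one, and Adam8 passed it downwards. The other 4 measured genes, Mmp2, Mmp12, Timp1 and Timp2, lay within 1.5-fold or had bounds under it. Of all 11077 measured genes, 6.36% passed 1.5-fold upwards and 4.77% downwards, and at 2-fold the shares were 1.67% and 0.776%. The measured genes of the group had a median log2 ratio of 0.11, beside -0.03 for all measured genes, and the group's median includes 2 lower bounds. These are the bounds of Mmp2 and Mmp12, which exceeded the floor with the ligands only and so could only be positive.

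**Figure D1:**
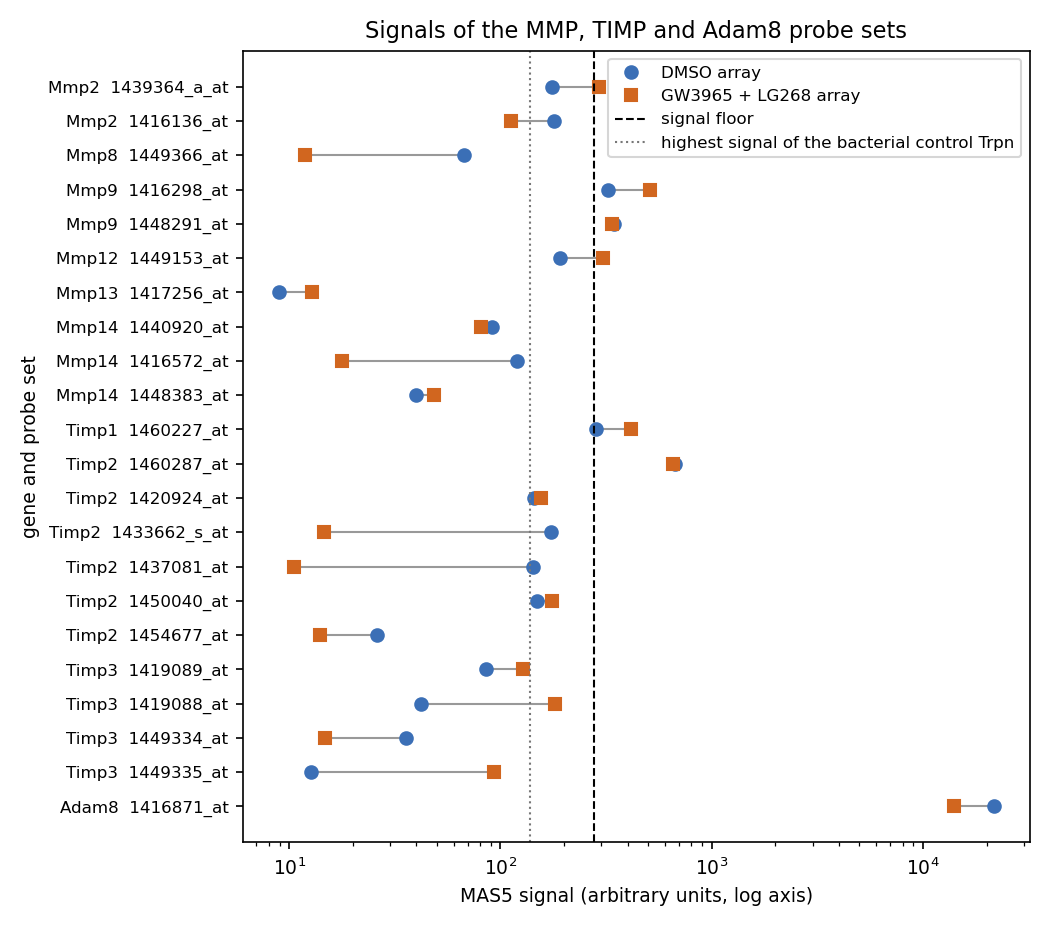
MAS5 signals (log axis, arbitrary units) of all 22 probe sets of the MMP, TIMP and Adam8 genes, with the DMSO array as circles and the ligand array as squares. The dashed line is the floor of 276.4 and the dotted line the highest Trpn signal, 137.5. Adam8 lies far above the floor on both arrays, and 15 probe sets lie below it on both.

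Adam8 was the one gene of the group with a strong signal. It encodes a membrane-bound disintegrin and metalloproteinase that sheds cell surface proteins, is expressed by myeloid cells and takes part in osteoclast fusion, and is an ADAM rather than an MMP. Its single probe set read 21684 with DMSO and 14049.6 with the ligands. The ligand array was therefore 1.54-fold lower, a log2 ratio of -0.63, against the SD of 0.27 for bright genes. Among the 8300 measured genes whose brighter signal exceeded 1105, 4 times the floor, 3.16% passed 1.5-fold downwards and 4.99% passed it upwards. The log2 ratio stayed between -0.63 and -0.60 under the 8 alternative settings tried. With 1 probe set far above every floor, only the added constant, quantile normalization and centring could change it. There was no second probe set to set beside it.

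The DNA upstream of Adam8 is shown because it is the only gene of the group with a bright signal that differed by 1.5-fold. The window of 250 bases before to 50 after the start site, from RefSeq on GRCm38.p6, lies on the minus strand at chr7:139992513-139992812. It was searched on both strands for the AP-1 site TGAGTCA, the PEA3/ETS core AGGAAG, the nuclear receptor half-site AGGTCA and the spaced repeat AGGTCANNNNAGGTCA that LXR and RXR bind together, of which the half-site is a part. None of these letters occurred in it, so it is printed without capitals.
Adam8: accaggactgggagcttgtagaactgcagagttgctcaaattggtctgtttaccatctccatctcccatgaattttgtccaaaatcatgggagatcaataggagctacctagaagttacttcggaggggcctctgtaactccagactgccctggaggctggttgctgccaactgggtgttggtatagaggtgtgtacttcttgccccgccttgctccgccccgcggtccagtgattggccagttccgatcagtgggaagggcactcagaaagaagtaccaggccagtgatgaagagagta

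The gelatinases Mmp2 and Mmp9, which cut denatured collagen and type IV collagen of basement membranes, had weak signals. The brighter probe set of Mmp9 read 321 with DMSO and 509 with the ligands, which is 1.58-fold higher, a log2 ratio of 0.66. The other probe set of Mmp9 read 345 and 337, a log2 ratio of -0.03. With DMSO this other probe set was the brighter one, so the choice by mean signal rested on the ligand array. The probe sets for Mmp9 thus disagreed by 0.70 on the log2 scale, and 23.6% of the dim genes with 2 probe sets above the floor disagreed by as much or more. Among the 2777 dim measured genes, 10.5% passed 1.5-fold upwards and 9.58% passed it downwards. With the mean of its probe sets Mmp9 had a log2 ratio of 0.31, under 1.5-fold. With a floor taken over named probe sets only, the DMSO value fell below the floor. The log2 ratio was then a bound of at least 0.32, which does not tell whether 1.5-fold was passed.

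For Mmp2, the brighter probe set read 175 with DMSO, below the floor, and 292 with the ligands, just above it, which bounds the difference at 1.06-fold higher or more. The other probe set went the opposite way, at 179 and 112, with both values below the floor. No direction common to the probe sets of Mmp2 was seen.

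Mmp12, the macrophage elastase, and the collagenases Mmp8, of neutrophils, and Mmp13 were represented by 1 probe set each. Mmp12 read 192 with DMSO and 305 with the ligands, so that only the ligand array exceeded the floor and the gene was at least 1.10-fold higher. Mmp8 read 67.0 and 11.9, and Mmp13 read 8.93 and 12.8. Both were below the highest Trpn signal of their array on each array, so their ratios are not interpreted. Mmp12 and Mmp13 are neighbours in the annotation, at the end of a run of 10 protein-coding genes on chromosome 9 that are all MMPs. Of the 9 genes of that run on the array, only Mmp12 and Mmp7 were measured. Mmp7, matrilysin, read 335 with DMSO and 236 with the ligands, above the floor with DMSO only and at least 1.21-fold lower. The bounds of Mmp12 and Mmp7 take their direction from the array that exceeded the floor and are not compared. Besides Mmp8 and Mmp13, the stromelysins Mmp3 and Mmp10, the interstitial collagenases Mmp1a and Mmp1b, and Mmp20 were below the floor on both arrays.

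The upstream windows of Mmp12 and Mmp13 are shown because, of 9 windows available for 8 of the 10 genes, only these held the AP-1 site, and because the AP-1 gene Fos differed between the arrays (values further on). They are from RefSeq on GRCm38.p6 and the plus strand, at chr9:7347124-7347423 for Mmp12, which has a second annotated start, and chr9:7272264-7272563 for Mmp13. Capitals mark the AP-1 site, read as TGAGTCA or its complement TGACTCA, the PEA3/ETS core AGGAAG, and in Mmp12 the nuclear receptor half-site, read as its complement TGACCT.
Mmp12: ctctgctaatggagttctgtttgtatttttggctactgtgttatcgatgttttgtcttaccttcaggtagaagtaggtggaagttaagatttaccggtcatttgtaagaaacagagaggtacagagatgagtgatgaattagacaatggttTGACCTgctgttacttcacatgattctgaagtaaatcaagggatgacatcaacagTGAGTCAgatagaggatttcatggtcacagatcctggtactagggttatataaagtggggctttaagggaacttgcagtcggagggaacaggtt
Mmp13: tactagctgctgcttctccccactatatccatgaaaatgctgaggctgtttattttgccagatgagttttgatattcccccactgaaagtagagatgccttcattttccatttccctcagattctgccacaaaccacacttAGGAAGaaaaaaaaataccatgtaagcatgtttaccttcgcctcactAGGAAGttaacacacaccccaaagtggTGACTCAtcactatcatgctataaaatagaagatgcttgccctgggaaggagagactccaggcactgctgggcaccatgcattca

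The AP-1 letters began 44 bases upstream of the start site in Mmp12 and 35 bases upstream in Mmp13. The half-site of Mmp12 began 99 bases upstream. In Mmp13, PEA3/ETS cores began 109 and 62 bases upstream, and none overlapped the AP-1 site. AP-1 letters were in 2 of the 9 windows and in 5.20% of all 32851 promoter windows. PEA3/ETS cores were in 6 of 9, beside 35.4% of all windows, and the half-site in 1 of 9, that of Mmp12, beside 16.3%. The spaced repeat was in none of the 9 windows and in 0.0152% of all windows. These matches describe letters, and binding was not measured.

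Mmp14, the membrane-type MMP that activates the Mmp2 precursor at the cell surface, was below the floor in all 3 of its probe sets. Its brightest probe set read 90.8 and 80.8, with DMSO and with the ligands. The other probe sets read 120 and 17.8, and 39.6 and 48.7. All these values were below the highest Trpn signal of the array concerned, so no level could be told from background.

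The inhibitors were weak as well. Timp1, a secreted inhibitor of most MMPs and a partner of the Mmp9 precursor, read 282 with DMSO and 416 with the ligands in its only probe set. It was 1.47-fold higher with the ligands, a log2 ratio of 0.56, beside an SD of 0.43 for dim genes. The DMSO value lay just above the floor of 276.4. Timp1 passed 1.5-fold after quantile normalization (log2 ratio 0.60) and after centring (0.59), and with the floor over named probe sets only it was bounded at 0.03 or more.

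Timp2, which inhibits MMPs and also joins Mmp2 precursor to Mmp14, read nearly the same on both arrays. Its brightest probe set gave 669 with DMSO and 657 with the ligands, a log2 ratio of -0.03, which became 0.00048 after centring. The other 5 probe sets were below the floor on both arrays. Of these, 1 read 144 and 156 and another 148 and 175, while a further one read 173 and 14.6. Timp3, the inhibitor that binds to the matrix and also blocks ADAM sheddases, was below the floor in all 4 probe sets. Its brightest read 85.0 and 127, and the others read 41.9 and 181, 35.6 and 14.8, and 12.6 and 93.6, with DMSO first. The probe sets of Timp3 did not share a direction. In the annotation Timp1 overlaps the synapsin gene Syn1 and Timp3 overlaps Syn3, as Timp4 overlaps Syn2.

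**Figure D2:**
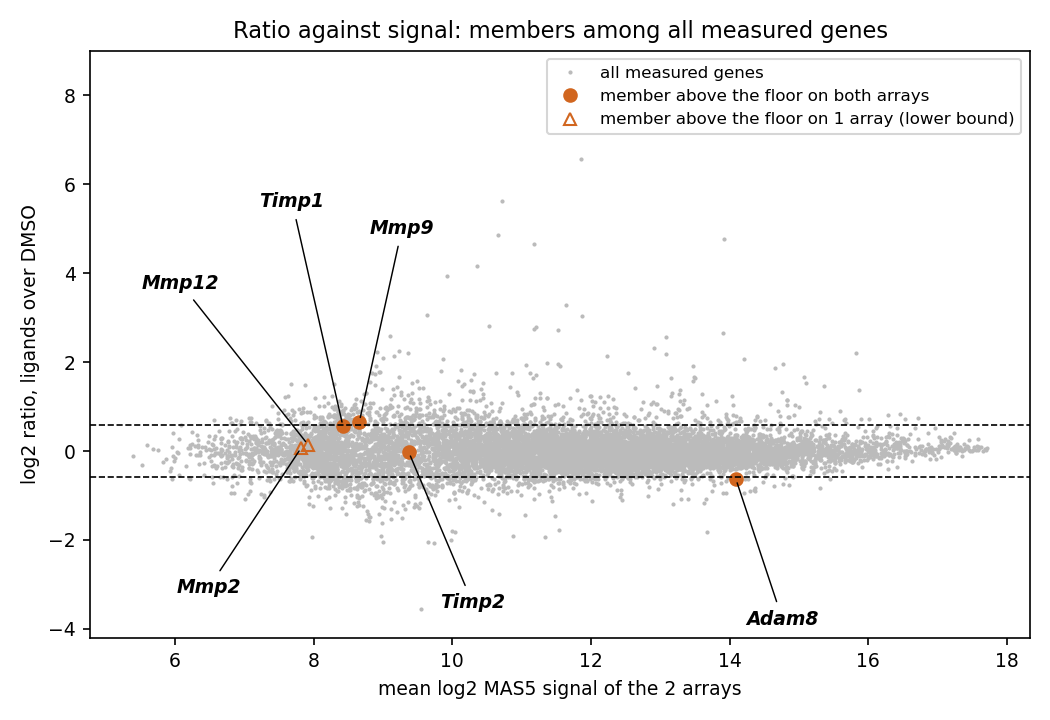
Log2 ratio (ligands over DMSO) against mean log2 MAS5 signal for the 11077 measured genes (grey) and the 6 measured genes of the group (orange, open triangles for lower bounds). Dashed lines mark 1.5-fold. Mmp9 and Timp1 lie near the upper line at weak signal, and Adam8 lies just past the lower line at strong signal.

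Other MMPs and inhibitors gave the same picture of weak signal. Of 12 other MMPs on the array, 3 were measured. Mmp17, a membrane-anchored MMP, had a log2 ratio of 0.43 (301 and 405) and Mmp24 one of -0.18 (456 and 401), both within 1.5-fold. The third was Mmp7, whose bound is given above. The median of the 3, with that bound, was -0.18. Of 5 other inhibitors and related genes, A2m and Pcolce were measured. A2m, a trapping inhibitor of many proteases, was at least 1.18-fold lower, and Pcolce, which enhances procollagen processing, was at least 1.46-fold lower. Timp4 and Reck, a membrane-anchored MMP inhibitor, were below the floor on both arrays.

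Of 11 other ADAM family genes on the array, 8 were measured. Adam9, Adam10, Adam15 and Adam17 exceeded the floor on both arrays and lay within 1.5-fold in the brightest probe set of each. Adam11, Adam12, Adam19 and Adam22 had lower bounds under 1.5-fold, and the median log2 ratio, 4 bounds included, was -0.11. Adam17, which releases TNF from the cell surface, read 12157 and 11131, a log2 ratio of -0.13, and its other probe sets were both at -0.44. Adam10 had -0.09 in its brightest probe set and 0.74 and 0.53 in others. Adam9 read 20698 and 17503, a log2 ratio of -0.24. Adam15 read 6001 and 7380, a log2 ratio of 0.30, and its other probe sets were at 0.43 to 0.86. Adam19 was at least 1.22-fold higher, from below the floor with DMSO. Whether Adam8 differed from the other ADAMs could not be tested with 1 array per group. Among the ADAMTS proteases, which cleave proteoglycans and procollagen, Adamts10 alone of 9 was measured, at 0.37.

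The next list held genes of plasminogen and MMP precursor activation, inhibition and clearance. Of 14 on the array, 7 were measured, all above the floor on both arrays. Of the 7, 3 passed 1.5-fold upwards and none downwards, beside 6.36% and 4.77% of all measured genes. Their median log2 ratio was 0.31. Plau, the urokinase that generates plasmin, read 593 with DMSO and 1047 with the ligands, 1.77-fold higher, and the other probe set had a log2 ratio of 1.70. Bsg, the MMP inducer basigin, read 40793 and 66849, 1.64-fold higher. Lrp1, an endocytic receptor that clears MMP and TIMP complexes, read 14503 and 23199, 1.60-fold higher, and a log2 ratio of 0.62 came from the other probe set. Furin, which cleaves the Mmp14 precursor, had a log2 ratio of 0.31, the plasmin inhibitor gene Serpinf2 one of 0.20, Pcsk7 one of 0.12, and Plaur, the urokinase receptor, one of -0.12, all within 1.5-fold.

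Most of the listed genes for matrix proteins that MMPs cut had weak signals on these arrays. Spp1 was listed but had no probe set of 1 gene symbol. Of 19 listed genes on the array, 9 were measured, with a median log2 ratio of -0.14. Among them 1 passed 1.5-fold upwards and 2 downwards, beside 6.36% and 4.77% of all measured genes. Of the 9, 6 were lower bounds, and the median is itself the bound of Fn1, fibronectin. Hspg2, perlecan, read 559 and 956, 1.71-fold higher, and its other probe set, at 71.0 and 49.5, was below the floor on both arrays. Col18a1, the collagen that contains endostatin, read 1450 and 837, 1.73-fold lower, and the other probe set gave a log2 ratio of -1.40. Fbln1, fibulin 1, was at least 1.65-fold lower. Its other probe sets, at 193 and 203 and at 176 and 35.4, were below the floor on both arrays. Lamc1, a laminin chain, was bright, at 2659 with DMSO and 2749 with the ligands, a log2 ratio of 0.05, and its other probe set gave -0.09. Fibroblast and endothelial markers were near background, with 2 of 10 and 1 of 5 measured. Pdgfrb (log2 ratio 0.09) and Fbln1 were the measured fibroblast markers, and Kdr (bound of -0.12) the endothelial one.

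Regulators of MMP genes were divided. Of 19 on the array, 16 were measured, 8 above and 8 below 0 on the log2 scale, with a median of -0.02. Of these, 4 passed 1.5-fold upwards and 3 downwards, beside 6.36% and 4.77% of all measured genes. The 3 lower ones also passed 2-fold, beside 0.776% of all measured genes. Fos, a subunit of AP-1, read 19034 with DMSO and 8447 with the ligands, 2.25-fold lower. Ets2, an ETS factor, read 14553 and 6937, 2.10-fold lower, and another measured probe set gave a log2 ratio of -1.98. Tnf, a cytokine that induces several MMPs, read 7871 and 3816, 2.06-fold lower. Jun, the partner of Fos, had a log2 ratio of -0.39 and Junb one of 0.09. Of the 4 higher ones, Tgfb1, a cytokine that raises Timp1 in many cells, was 1.54-fold higher and the retinoic acid receptor Rara 1.77-fold higher. The others were the retinoic acid receptor Rarg, 1.58-fold higher, and the cytokine Il1b. Il1b read 176 with DMSO, below the floor, and 430 with the ligands, at least 1.56-fold higher. A part of these genes in the values of Mmp9, Timp1 or Adam8 was not tested.

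**Figure D3:**
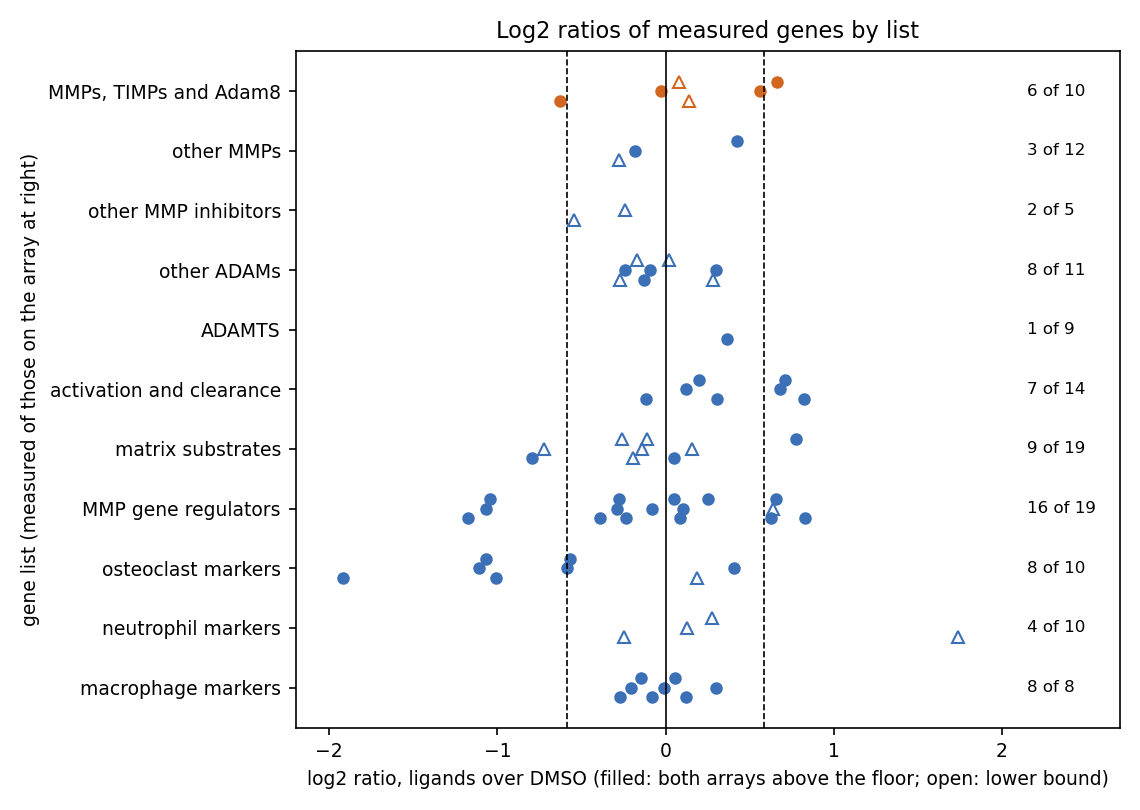
Log2 ratios (ligands over DMSO) of the measured genes of each list, with filled circles for genes above the floor on both arrays and open triangles for lower bounds. Dashed lines mark 1.5-fold and the numbers at the right give measured genes of those on the array. The MMP, TIMP and Adam8 genes spread from -0.63 to 0.66, and the osteoclast markers reach -1.92.

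Mmp9, Mmp14 and Adam8 are also known from osteoclasts, a fate open to RAW264.7 cells. Of 10 osteoclast markers on the array, 8 were measured, with a median log2 ratio of -0.80. Of the 8, 5 passed 1.5-fold downwards and none upwards, beside 4.77% and 6.36% of all measured genes. The acid phosphatase gene Acp5 read 3652 with DMSO and 966 with the ligands, a log2 ratio of -1.92. The protease gene Ctsk and the fusion gene Ocstamp had log2 ratios of -1.11 and -1.07. Adam8 was lower beside these markers, whereas the brighter probe set of Mmp9 was higher and its other probe set had a log2 ratio of -0.03. The summed signal of all 10 osteoclast markers was 159817 with DMSO and 191069 with the ligands, because Car2, carbonic anhydrase, made up most of it and read 134088 and 177859. Their part in the value of Adam8 was not tested. Mmp8 and Mmp9 are also granule proteins of neutrophils. Of 10 neutrophil markers on the array, 4 were measured, all as lower bounds, and S100a8, S100a9 and Ltf were among those below the floor on both arrays. Elane and Mpo exceeded the floor with the ligands only, at least 1.21- and 1.09-fold higher. Camp exceeded it with DMSO only, at least 1.19-fold lower. Prtn3, proteinase 3, was at least 3.34-fold higher (240.3 and 923), and the summed signal of the list was 1282 and 2161. In bulk RNA, a different share of cells expressing a gene and a different amount of its RNA per cell cannot be told apart.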

How the data were processed

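Gene expression was measured on 2 arrays, 1 per condition. The authors deposited 1 intensity per probe set, the MAS5 signal, per the submitters' processing notes. MAS5 brings the trimmed mean of every array to one target, so ratios are relative to most other genes. Its version is not stated, detection calls were not used, and the deposited intensities were not normalized again.

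Names came from the platform annotation, updated by gene identifier to GRCm38.p6 for 34741 of 34945 probe sets with 1 symbol. The 932 with several symbols, 9160 with none and 64 control probe sets were left out. A gene was represented by the probe set with the highest mean of log2 signals. Signals under the floor of 276.4 were set to it, and log2 ratios were ligands over DMSO. With 1 array above the floor, the fold is a lower bound ("at least"), and its direction is set by which array exceeded the floor. Folds of 1.5 and 2 were used for counts, and the limit between dim and bright genes, 4 times the floor, was set after the values were seen. The 4 dim-gene and bright-gene shares are descriptions.

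Members and gene lists were chosen with earlier results of these data known. All 10 members were named, and from each list up to 3 genes of at least 1.5-fold, or otherwise up to 2 of the largest ratios. Other list genes quoted were chosen after their values were seen. Alternatives were floors at percentiles 25 and 75, no floor with log2(signal + 32), quantile normalization, centring, the mean over probe sets, and leaving out probe sets ending in _s_at, _x_at or _a_at. A floor over named probe sets only (406.5) was added after the values were seen. The procedure was tested on simulated data only for differences above 2-fold in genes above the floor on both arrays. Its behaviour at 1.5-fold was not tested. Promoter windows are RefSeq's, and none was used for Mmp2 and Mmp9. Python 3.11.15, numpy 2.4.6 and pandas were used.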

Additional observations from a re-analysis of the deposited data

How the results depend on the processing

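No paired analysis was possible because each condition had 1 array, and for the same reason no array could be left out. The count of genes at least 2-fold higher stayed at 0 under all 8 alternatives. The count at least 2-fold lower stayed at 0 except without a floor, where it was 1, Mmp8, whose signals were below the highest Trpn signal. The count at least 1.5-fold higher, 1 as reported, was 3 with the floor at the 25th percentile and 3 without a floor, 2 with quantile normalization and 2 with centring. It was 0 with the floor at the 75th percentile, 0 with the mean over probe sets and 0 with the floor over named probe sets only, and 1 without _s_at, _x_at and _a_at probe sets. The count at least 1.5-fold lower, 1 as reported, was 2 without a floor and 1 under the other 7 alternatives. The group's median log2 ratio, 0.11, was 0.57 with the floor at the 25th percentile, where 8 genes were measured, and -0.63 with the floor at the 75th percentile, where only Adam8 was measured. With the lower floor, 15.5% of all measured genes passed 1.5-fold upwards and 15.5% downwards. Without a floor, where all 10 genes had a ratio, these shares were 15.7% and 16.0%. With the floor at the 75th percentile they were 3.39% and 1.88%. For Mmp2 and Mmp12, the log2 ratios of 0.08 and 0.14 are bounds and were 0.73 and 0.67 with the lower floor. Neither gene was measured with the floor over named probe sets only, which left 4 genes, or with the floor at the 75th percentile. Mmp2 was also not measured without _s_at, _x_at and _a_at probe sets, which left 5. Adam8 stayed between -0.63 and -0.60 under all 8, of which the changes of floor and of probe sets could not alter its value. Weak signal over background limits every statement on this group apart from that on Adam8.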

Other observations

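The protein-coding genes that flank Mmp9 in the GRCm38.p6 annotation include Pltp, the phospholipid transfer protein known as an LXR target. Pltp read 9213 with DMSO and 38781 with the ligands, 4.21-fold higher. Of the 4 genes on either side of Mmp9, all 8 were measured. Of these, Pltp and Cd40, the costimulatory receptor, were at least 1.5-fold higher, beside 6.36% of all measured genes. Cd40 read 397 and 955, 2.41-fold higher. Zfp335 and Slc12a5, the genes next to Mmp9, had log2 ratios of 0.02 and 0.29. Of the 8 genes that flank Adam8, 6 were measured, 3 of them, Utf1, Msx3 and Caly, as lower bounds. Utf1 was at least 1.38-fold higher, and Msx3 and Caly were at least 1.35- and 1.37-fold lower. The other 3 lay within 1.5-fold, with Tubgcp2, a component of the gamma-tubulin complex, next to Adam8 at -0.30. These flanking genes were looked at after the values were seen, and no test was possible.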
